A study of Homo sapiens with 24 samples.

Results

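The transcripts of 8 hepatocyte transcription factors were followed across 6 human liver cancer cell lines: HNF4A, FOXA1, FOXA2, FOXA3, CEBPA, ONECUT1, NR1H4 and PROX1. They were taken by name, as liver-enriched regulators, and are 8 of the 23284 rows of the expression table. Polyadenylated RNA was sequenced in 24 libraries from HepG2, Huh7, Huh1, Hep3b, SK-HEP1 and HLE, all labelled as hepatocellular carcinoma and grown in DMEM with serum. Each line gave 1 library in each of 4 groups, so a group held 6 libraries: cells with a control siRNA (siCTL), labelled wild type, and cells with an siRNA against SFPQ (siSFPQ), each left without TGF-beta or exposed for 24 hours to 2 ng/ml of it. SFPQ binds RNA and DNA in the nucleus and is a core protein of paraspeckles. TGF-beta is a cytokine whose receptors activate SMAD transcription factors. The labels name neither separate cultures within a line nor a second siRNA, so the lines are the only replicates and an effect of the siRNA on transcripts other than its target cannot be told apart from that of SFPQ loss.

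In the liver, FOXA1, FOXA2 and FOXA3 are forkhead factors that open chromatin at liver enhancers, and HNF4A is the nuclear receptor that drives most plasma protein and lipoprotein genes. CEBPA is a leucine zipper factor of mature, non-dividing hepatocytes, and ONECUT1 (HNF6) is a cut-homeodomain factor of hepatocyte and bile duct development. NR1H4 encodes the bile acid receptor FXR, and PROX1 is a homeodomain factor needed for hepatoblasts to move out of the liver bud. These factors bind one another's regulatory regions and hold each other's expression in place, and loss of HNF4A is known to accompany dedifferentiation of liver tumours.

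Of 14 plasma protein genes used as hepatocyte markers, 14 were at or above 1 FPKM (fragments per kilobase, scaled to all mapped fragments of a library) in all 4 libraries of HepG2 and of Huh7, and 12 in Huh1, against 6 in SK-HEP1, 5 in HLE and 3 in Hep3b. Their summed level was 8.24 to 14.2 FPKM in the libraries labelled Hep3b, 24.2 to 126 in SK-HEP1 and HLE, and 1330.4 to 19386 in the other three lines. Hep3B is known as an albumin producer, but ALB was at 0.514 to 0.951 FPKM in the 4 libraries labelled Hep3b, which goes against the label. Results are therefore given for "the libraries labelled Hep3b", with a statement of whether each called gene stayed called without them. SK-HEP1 has been described as endothelial in origin, but no endothelial marker of 9 reached 1 FPKM in all 4 libraries of any line (summed level at most 3.53 FPKM), and TTR, which encodes transthyretin, was listed at 0 in all 8 libraries of HLE and SK-HEP1. SFPQ retained 9.49% (HLE) to 45.2% (HepG2) of its siCTL level, and its mean log2 change was -2.10 without TGF-beta and -1.97 with it. The table gives no counts. Relative depth, judged by what 1 read adds to weakly expressed genes (median library 1), ran from 0.352 (Huh7 siSFPQ with TGF-beta) to 1.73, and was 0.398 in HepG2 siSFPQ without TGF-beta.

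Promoter windows of the RefSeq annotation (build GRCh38.p14) were found for 6 of the 8 genes. Each window is the 250 bases before the start of transcription. It was searched on both strands for 4 short motifs: the forkhead motif TGTTTAC, the ONECUT motif ATTGAT, the HNF4 motif CAAAGTCCA and the C/EBP motif TTNNGCAA. The 2 HNF4A windows are shown because HNF4A has 2 promoters and they hold the only matches, and ONECUT1 and FOXA1 because these 2 genes passed a test of SFPQ knockdown. They are printed 5′ to 3′ on the strand of the gene, with motif matches in capitals. In the order printed they lie at chr20:44355449-44355698 (plus strand), chr20:44400989-44401238 (plus), chr15:52790337-52790586 (minus) and chr14:37595250-37595499 (minus).
HNF4A upstream window: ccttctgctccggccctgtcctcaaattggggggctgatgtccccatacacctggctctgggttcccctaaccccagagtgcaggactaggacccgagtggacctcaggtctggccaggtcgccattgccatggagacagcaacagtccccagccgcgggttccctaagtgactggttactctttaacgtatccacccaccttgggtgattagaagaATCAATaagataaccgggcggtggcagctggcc
HNF4A downstream window: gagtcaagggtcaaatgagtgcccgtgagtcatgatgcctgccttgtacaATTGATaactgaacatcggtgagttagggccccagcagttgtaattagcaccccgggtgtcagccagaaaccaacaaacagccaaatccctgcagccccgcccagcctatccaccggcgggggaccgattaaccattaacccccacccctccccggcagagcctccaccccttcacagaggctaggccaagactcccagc
ONECUT1: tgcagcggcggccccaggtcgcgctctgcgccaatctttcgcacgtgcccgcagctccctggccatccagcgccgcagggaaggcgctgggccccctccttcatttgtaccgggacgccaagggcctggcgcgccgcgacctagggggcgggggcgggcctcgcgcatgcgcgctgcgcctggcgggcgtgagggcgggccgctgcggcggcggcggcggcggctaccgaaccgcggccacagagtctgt
FOXA1: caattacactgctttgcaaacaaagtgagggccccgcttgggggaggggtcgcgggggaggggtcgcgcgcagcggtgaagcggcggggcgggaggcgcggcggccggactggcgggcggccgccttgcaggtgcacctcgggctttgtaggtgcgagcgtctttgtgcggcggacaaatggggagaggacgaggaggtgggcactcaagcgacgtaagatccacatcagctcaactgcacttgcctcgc

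The upstream HNF4A window held 1 ONECUT match, on the reverse strand at 33 to 28 bases before the start. The downstream HNF4A window held 1 ONECUT match at 200 to 195 bases before the start. The windows of FOXA1, ONECUT1, CEBPA, FOXA3 and NR1H4 held none of these letters. Among 35116 windows of the same length, 5.58% held the ONECUT motif, 2.98% the forkhead motif, 9.05% the C/EBP motif and 0.325% the HNF4 motif. A match describes the letters only, since binding was not measured here.

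The 8 genes were expressed in a block: Huh1, Huh7 and HepG2 held nearly all of their RNA, and HLE and SK-HEP1 had less than 1 FPKM of every one of them in every library. In the libraries labelled Hep3b, FOXA1 and CEBPA were the 2 members at or above 1 FPKM, while the other 6 stayed below it. The levels that follow are means ± SD over the 4 libraries of a line, which belong to different groups, so the SD includes any effect of siRNA and TGF-beta. In bulk RNA, fewer cells that express a gene and less RNA per cell cannot be told apart. The plot of levels by line shows every library.

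**Figure D1:**
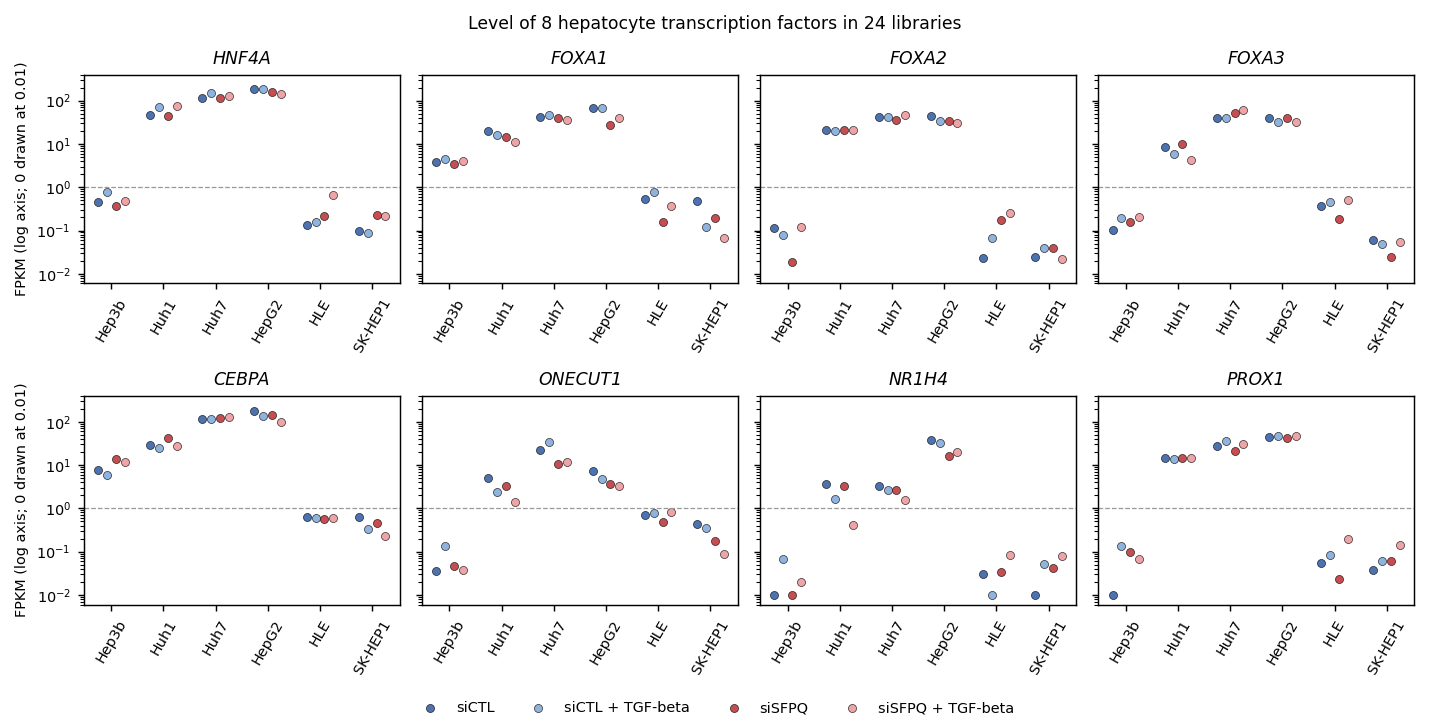
FPKM (log axis, with 0 drawn at 0.01) of each of the 8 genes in 24 libraries, by line on the horizontal axis and by group in colour, with a dashed line at 1 FPKM. All 8 genes lie above the dashed line in Huh1, Huh7 and HepG2, except NR1H4 at 0.407 FPKM in Huh1 siSFPQ with TGF-beta. FOXA1 and CEBPA alone lie above it in the libraries labelled Hep3b.

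HNF4A was at 169 ± 23.0 FPKM (SD, n = 4) in HepG2, 126 ± 14.4 in Huh7 and 58.6 ± 15.8 in Huh1. The 4-library ranges of HepG2 and Huh7 overlapped, and both lay above that of Huh1. In the libraries labelled Hep3b it was at 0.522 ± 0.185 FPKM, within the range also seen in HLE (0.131 to 0.644), and SK-HEP1 was at 0.0861 to 0.230. HNF4A therefore fell into a group of 3 lines above 1 FPKM in every library and a group of 3 below it.

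Among the forkhead genes, FOXA1 reached 1 FPKM in 16 libraries from 4 lines. It was at 50.4 ± 19.4 FPKM (SD, n = 4) in HepG2, 40.8 ± 4.49 in Huh7, 15.4 ± 3.94 in Huh1 and 3.91 ± 0.480 in the libraries labelled Hep3b. HepG2 and Huh7 overlapped, and each later step in that order did not. In HLE (0.157 to 0.766) and SK-HEP1 (0.0684 to 0.468) the gene stayed under 1 FPKM and the ranges overlapped. FOXA2 and FOXA3 reached 1 FPKM in 12 of 24 libraries each, all from Huh1, Huh7 and HepG2. FOXA2 was at 41.5 ± 3.90 FPKM in Huh7 and 35.2 ± 5.59 in HepG2, which overlapped, and at 20.7 ± 0.572 in Huh1. FOXA3 was at 48.1 ± 9.53 FPKM in Huh7 and 36.0 ± 4.71 in HepG2, which overlapped, and at 7.15 ± 2.47 in Huh1. In Huh1, FOXA3 thus had the lowest level of the 3 forkhead genes, while in Huh7 the ranges of the 3 overlapped.

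CEBPA was, with HNF4A, the most abundant of the 8. Its level was 139 ± 30.3 FPKM (SD, n = 4) in HepG2 and 119 ± 7.49 in Huh7, which overlapped, then 31.4 ± 7.81 in Huh1 and 9.82 ± 3.72 in the libraries labelled Hep3b, neither of which overlapped its neighbour. HLE (0.575 to 0.622) and SK-HEP1 (0.229 to 0.616) overlapped.

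ONECUT1 was a low transcript with another order of lines. Huh7 led with 19.7 ± 11.1 FPKM (SD, n = 4), above HepG2 at 4.79 ± 1.89 and Huh1 at 3.03 ± 1.56, whose ranges overlapped. HLE was at 0.494 to 0.804 FPKM, SK-HEP1 at 0.0866 to 0.443 and the libraries labelled Hep3b at 0.0364 to 0.132. NR1H4 was concentrated in HepG2, at 26.8 ± 10.1 FPKM against 2.52 ± 0.715 in Huh7 and 2.24 ± 1.51 in Huh1. It was listed at 0 in 4 of the 12 libraries of the other three lines, where it did not exceed 0.0844 FPKM. PROX1 was at 44.5 ± 2.09 FPKM in HepG2, 28.2 ± 6.10 in Huh7 and 14.2 ± 0.400 in Huh1, with no overlap between them, and at most 0.199 FPKM elsewhere. In an annotation of another build, genes on the opposite strand overlap HNF4A, FOXA1, CEBPA, NR1H4 and PROX1, and of these PROX1-AS1 is in the table. Without a stated use of strand, reads of such pairs cannot be told apart.

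The line accounted for 93.5% (ONECUT1) to 99.8% (FOXA2) of the sum of squares of log2(FPKM + 1) over the 24 libraries. For all 13496 genes with at least 1 FPKM in at least 6 libraries the median share was 87.6%, and 28.5% of them were at or above the share of ONECUT1. The siRNA took 2.57% of the sum of squares of ONECUT1, 0.822% of FOXA1 and 0.695% of NR1H4, and at most 0.0644% of each of the other 5, against a median of 2.22%. TGF-beta took at most 0.477% (NR1H4), against a median of 0.517%. What varied in these genes was mainly the line, and the siRNA and TGF-beta comparisons below are made within lines.

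ONECUT1 was lower after SFPQ knockdown in 5 of 6 lines in both settings and passed the test in cells without TGF-beta only. That call ended on leaving out any 1 line other than Hep3b, as given below. Most of the other 7 genes had no shared direction over the lines. In siCTL and siSFPQ in turn, ONECUT1 was at 22.0 and 10.6 FPKM in Huh7. It was at 7.43 and 3.69 FPKM in HepG2 and at 5.10 and 3.20 FPKM in Huh1. In those 3 lines the differences were -0.99, -0.85 and -0.54 on the log2(FPKM + 1) scale, while the values of HLE, SK-HEP1 and the libraries labelled Hep3b were all under 1 FPKM. Over the 6 lines the mean log2 difference was -0.48 (SE 0.14, 5 of 6 lines lower, limma adjusted p = 0.0388 over all genes tested). With TGF-beta in both arms, ONECUT1 was at 34.5 and 11.7 FPKM in Huh7, 4.86 and 3.19 in HepG2 and 2.40 and 1.43 in Huh1. The mean difference there was also -0.48 (SE 0.18, 5 of 6 lines lower), with a limma adjusted p of 0.0708, which missed the threshold of 0.05. Without Huh7 it was -0.27 (adjusted p = 0.0944). The plot of paired libraries shows both sets.

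FOXA1 was lower after knockdown in all 6 lines in both settings and passed the test in cells given TGF-beta. In HLE and SK-HEP1 it was under 1 FPKM in every library, so their differences rest on few reads. With TGF-beta, siCTL and siSFPQ were at 67.2 and 40.2 FPKM in HepG2. Huh7 went from 45.7 to 34.9 FPKM, Huh1 from 15.7 to 10.8, and the libraries labelled Hep3b from 4.50 to 4.03. The values after knockdown were thus 59.9%, 76.3%, 68.6% and 89.6% of control in these lines, a mean log2 difference of -0.36 over the 6 lines (SE 0.11, limma adjusted p = 0.0320). Without TGF-beta the corresponding values were 66.0 and 28.0 FPKM in HepG2, 42.0 and 40.5 in Huh7, 20.3 and 14.7 in Huh1, and 3.75 and 3.36 in the libraries labelled Hep3b. HepG2 was lowest of these there, at 42.4% of control, with 45.2% of its SFPQ retained and a relative depth of 0.398 in its siSFPQ library. It was also lowest of them with TGF-beta (59.9%), where the relative depth of that library was 1.18. A part of SFPQ level or depth in these values was not tested. The mean difference without TGF-beta was -0.42 (SE 0.15, limma adjusted p = 0.0664), and -0.26 without HepG2 (adjusted p = 0.129).

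**Figure D2:**
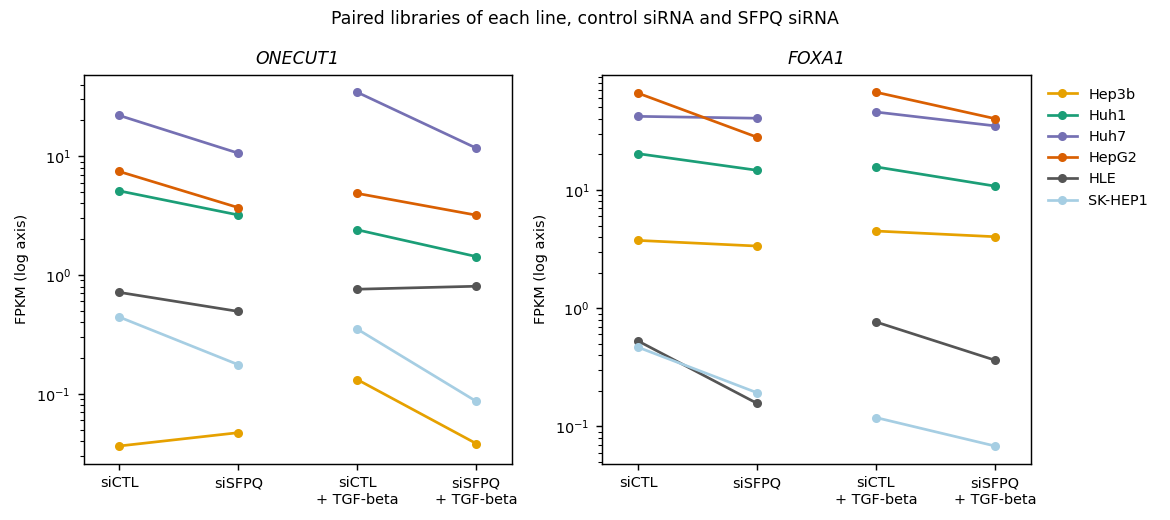
FPKM (log axis) of ONECUT1 and FOXA1 in siCTL and siSFPQ libraries of each line, without and with TGF-beta, with a line joining the libraries of 1 cell line. FOXA1 slopes down in 6 of 6 lines in both settings, and ONECUT1 in 5 of 6.

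Thus 1 of 8 members was called without TGF-beta (ONECUT1), where 21.7% of all 12013 genes tested were called and 15.0% were called lower. With TGF-beta 1 of 7 was called (FOXA1), where 30.3% of 12023 genes were called and 21.8% were called lower. The members' counts are therefore no higher than the background. The median change of the members was -0.06 and 0.01, against -0.07 and -0.09 for all genes tested. The libraries labelled Hep3b did not carry the calls: without them ONECUT1 was at -0.57 (limma adjusted p = 0.0321) and FOXA1 at -0.41 (adjusted p = 0.0389). Leaving out any other single line ended the call of ONECUT1 (adjusted p = 0.0588 to 0.0934), and leaving out Huh1, Huh7, HepG2 or HLE ended that of FOXA1 (adjusted p = 0.0577 to 0.0990). FOXA1 also lost its call when libraries were rescaled by median ratio (-0.29, adjusted p = 0.0618) or had their GC trend removed (-0.24, adjusted p = 0.123).

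CEBPA moved in different directions between lines after knockdown. It was at 7.48 and 13.9 FPKM (siCTL and siSFPQ) in the libraries labelled Hep3b and at 29.6 and 42.7 in Huh1. It was at 114 and 121 FPKM in Huh7 and, in the other direction, at 174 and 143 in HepG2. With TGF-beta the libraries labelled Hep3b were at 5.95 and 11.9 FPKM, 201% of control, and HepG2 at 136 and 101, 73.8% of control. The mean differences were 0.15 (SE 0.14) and 0.12 (SE 0.15), neither past the threshold (limma adjusted p = 0.460 and 0.576). Without the libraries labelled Hep3b they were 0.02 and -0.04.

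NR1H4 was lower after knockdown in each of the 3 lines that express it, in both settings. In HepG2 it was at 38.0 and 16.5 FPKM without TGF-beta and at 32.4 and 20.4 with it. Huh7 was at 3.24 and 2.61 FPKM and then at 2.69 and 1.53, and Huh1 at 3.63 and 3.33 and then at 1.60 and 0.407. The mean difference without TGF-beta was -0.24 (SE 0.16, limma adjusted p = 0.299). It was -0.05 without HepG2 and -0.10 with the GC trend removed. With TGF-beta it was not tested, since only 5 of the 12 libraries reached 1 FPKM.

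HNF4A, FOXA2, FOXA3 and PROX1 had mean differences after knockdown between -0.07 and 0.08, each with an SE of 0.09 to 0.12, in either setting. HNF4A was at 97.3% of control in Huh1, 102% in Huh7 and 86.1% in HepG2 without TGF-beta, and at 104%, 86.4% and 74.5% with it. FOXA3 was at 118%, 133% and 103% of control in these lines without TGF-beta and at 72.8%, 146% and 101% with it. None of the 4 genes passed the test (limma adjusted p = 0.632 to 0.976). The sign of HNF4A with TGF-beta (-0.03) turned positive under median ratio scaling and after removal of the GC trend. Without HLE and SK-HEP1, lines under 1 FPKM, the HNF4A mean with TGF-beta was -0.21 (SE 0.10, limma adjusted p = 0.160). Without the libraries labelled Hep3b as well, that mean was -0.19 (SE 0.12, adjusted p = 0.322). A missed threshold with 6 lines does not show that the levels were equal.

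**Figure D3:**
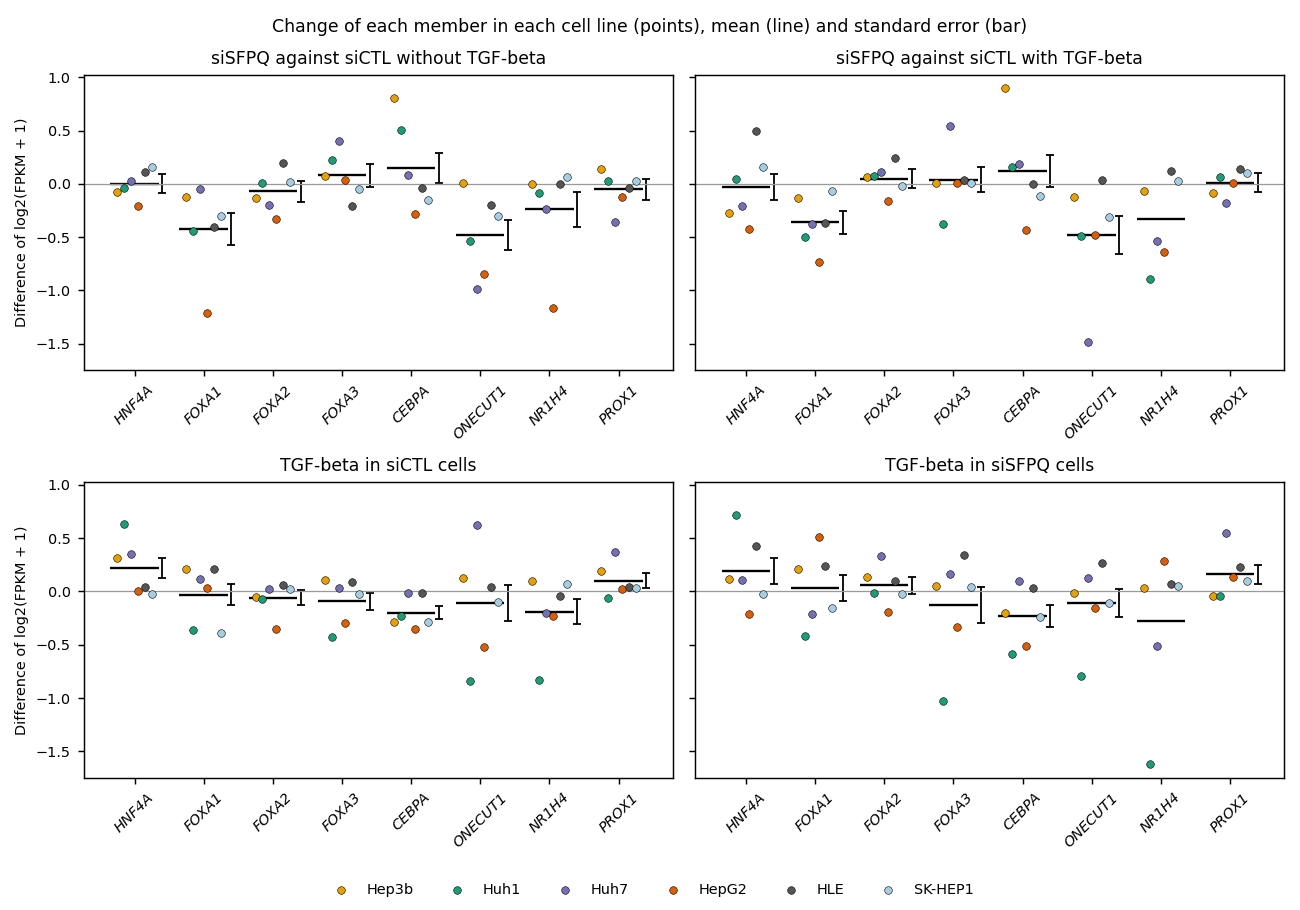
Difference of log2(FPKM + 1) for each of the 8 genes in each line (points), with the mean over lines (black line) and its standard error (bar), in 4 comparisons. NR1H4 has no error bar where it was not tested, and ONECUT1 and FOXA1 have their means below 0 in both siSFPQ comparisons.

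TGF-beta for 24 hours moved none of the 8 genes past the threshold. In siCTL cells 0 of 8 were called (limma), against 0.0986% of 12166 genes, with 2 members (HNF4A and CEBPA) and 1910 genes under an unadjusted p of 0.05. In siSFPQ cells 0 of 7 were called, against 5.13% of 11886 genes, with 1 member (CEBPA) and 3353 genes under that p. CEBPA was lower in 6 of 6 siCTL lines after TGF-beta, with a mean of -0.20 (SE 0.06, limma adjusted p = 0.191). HepG2 went from 174 to 136 FPKM, Huh1 from 29.6 to 25.1, and the libraries labelled Hep3b from 7.48 to 5.95, while Huh7 stood at 114 and 113. The remaining lines were under 1 FPKM, HLE at 0.622 and 0.608 and SK-HEP1 at 0.616 and 0.325. In siSFPQ cells the mean was -0.23 (SE 0.10, adjusted p = 0.167, 4 of 6 lines lower).

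HNF4A had a positive mean difference with TGF-beta, 0.22 (SE 0.09, limma adjusted p = 0.294) in siCTL cells and 0.19 (SE 0.12, adjusted p = 0.304) in siSFPQ cells. Without Huh1 these were 0.14 and 0.09. Huh1 stood at 156% and 166% of its untreated level, Huh7 at 128% and 108%, and HepG2 at 99.9% and 86.5%. In Huh1 the other members at or above 1 FPKM were not higher with TGF-beta in siCTL cells. There ONECUT1 stood at 5.10 without and 2.40 FPKM with TGF-beta, NR1H4 at 3.63 and 1.60, FOXA3 at 8.38 and 5.98, and FOXA1 at 20.3 and 15.7. Huh7 was different for ONECUT1, with 22.0 and 34.5 FPKM. The means of ONECUT1 were -0.11 in both settings (SE 0.17 and 0.13), with 3 of 6 and 4 of 6 lines lower (limma adjusted p = 0.769 and 0.590).

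The comparisons without and with TGF-beta, and those in siCTL and siSFPQ cells, were set against each other by the interaction, the TGF-beta change in siSFPQ cells minus that in siCTL cells within each line. It called 0 of 8 members (limma), against 0.252% of 13496 genes, with no member and 1688 genes under an unadjusted p of 0.05. The interaction was 0.00 for ONECUT1 (SE 0.11, limma adjusted p = 0.999) and 0.06 for FOXA1 (SE 0.10, adjusted p = 0.849). The call of ONECUT1 without TGF-beta only and that of FOXA1 with it only were thus not shown to differ between the settings. The interaction was largest for FOXA2, at 0.12 (SE 0.07, 5 of 6 lines higher, adjusted p = 0.534).

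A wider list of 26 liver transcription factors held several genes with larger changes, at shares of calls below those of all genes. Of 24 tested, 3 fell and 1 rose after knockdown without TGF-beta, and of 25 tested with it, 5 fell and 1 rose. The median changes were -0.24 and -0.21, against -0.07 and -0.09 for all genes. XBP1, the unfolded protein response factor that serves secretion, fell in 6 of 6 lines in both settings, by 1.50 (SE 0.18, limma adjusted p = 0.00288) in untreated cells and by 1.27 (SE 0.18, adjusted p = 0.00326) in treated ones. In HepG2 it was at 393 and 189 FPKM without TGF-beta, and in SK-HEP1 at 37.7 and 5.85. NR1I3, the xenobiotic receptor CAR, fell by 0.92 and 0.93 (SE 0.12 each, limma adjusted p = 0.00324 and 0.00264). The calls of XBP1 and NR1I3 held on leaving out any 1 line, the libraries labelled Hep3b among them. NR1I3 overlaps TOMM40L on the opposite strand, which changed by -1.30 and -1.27. Whether counting used strand is not given in the sources used here, so reads of the 2 genes cannot be told apart.

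ONECUT2, the paralog of ONECUT1, fell by 0.33 without TGF-beta (SE 0.10, 6 of 6 lines lower, limma adjusted p = 0.0395), a call that ended on leaving out any 1 line except HepG2. In HLE (0.174 and 0.0575 FPKM in siCTL and siSFPQ) and SK-HEP1 (0.243 and 0.0705) its differences rest on few reads. ATF5, a stress-induced liver factor, rose by 0.48 (SE 0.13, adjusted p = 0.0259), a call that ended without any 1 of Huh7, HepG2, HLE or SK-HEP1. With TGF-beta, RXRA, the partner of FXR and CAR, fell by 0.40 (SE 0.09, adjusted p = 0.0126). CEBPB, the acute phase relative of CEBPA, rose by 0.66 (SE 0.14, adjusted p = 0.0105). Both calls held on leaving out any 1 line. HNF4G (-0.41, adjusted p = 0.0358) and NR2F2 (-0.35, adjusted p = 0.0350) were the remaining 2 of the 5 that fell, and are named here after their values were seen. Without the libraries labelled Hep3b, NR2F2 stayed called and HNF4G did not. Both calls ended without any 1 of Huh1, Huh7 or HepG2 and with the GC trend removed, and that of NR2F2 also without HLE or SK-HEP1 and under median ratio scaling. With TGF-beta in siSFPQ cells, CEBPD and ATF5 each fell by 0.56 (limma adjusted p = 0.0389 and 0.0481), and both calls ended on leaving out any 1 line. In siCTL cells none of 25 passed, with CEBPD at -0.70 (adjusted p = 0.0665) and GATA4 at -0.30 (adjusted p = 0.0929). CEBPB was the 1 gene of the wider list with an interaction past the threshold (0.74, SE 0.12, adjusted p = 0.0398), and that call ended on leaving out any 1 line except HepG2.

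Few known target genes of the bile acid receptor FXR, the product of NR1H4, could be tested. After knockdown, 1 of 3 FXR targets tested was called without TGF-beta and 1 of 4 with it, where 21.7% and 30.3% of all genes were called. In both settings the called gene was SDC1, which encodes syndecan 1. It rose by 0.37 (SE 0.10, limma adjusted p = 0.0234) and 0.77 (SE 0.15, adjusted p = 0.00835). The former call ended without Hep3b, Huh7, HLE or SK-HEP1, and the latter held on leaving out any 1 line. SDC1 was higher in 6 of 6 lines in both settings. With TGF-beta it went from 123 to 330.0 FPKM in HLE and from 21.0 to 51.1 in SK-HEP1, where NR1H4 was at most 0.0844 FPKM. In HepG2, the line with the most NR1H4, it went from 81.7 to 96.2 FPKM. A part of FXR in the change of SDC1 was not tested. The remaining FXR targets did not pass in either setting, and most of the 14 in the table were too low to be tested. TGF-beta called 0 of 3 FXR targets tested in siCTL cells and 0 of 5 in siSFPQ cells (limma). The shares called over all genes were 0.0986% and 5.13%.

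Plasma protein genes, the markers of hepatocyte identity, did not pass the test after knockdown: 0 of 13 were called without TGF-beta and 0 of 12 with it (limma), where 21.7% and 30.3% of all genes were called. Their medians were 0.02 and 0.00, against -0.07 and -0.09 for all genes. APOA2, an apolipoprotein gene, was at 0.67 (SE 0.26, adjusted p = 0.0886) in untreated cells and 0.71 (SE 0.25, adjusted p = 0.0559) in treated ones, with 5 of 6 lines higher in both.

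Markers of other cell types moved beside the members in some comparisons, and their part in the members' values was not tested. Of all genes tested, knockdown called 21.7% without TGF-beta and 30.3% with it, and TGF-beta called 5.13% in siSFPQ cells. No marker list was tested against these shares. After knockdown without TGF-beta, of 6 bile duct markers 0 passed, with KRT19 at 0.84 (SE 0.27, limma adjusted p = 0.0514). With TGF-beta 1 of 6, KRT7, rose by 0.54 (SE 0.09, adjusted p = 0.00435). Of 4 stellate cell and fibroblast markers, ACTA2 was called in both settings (-0.37 and -0.42), but not on leaving out any 1 line, except Huh1 with TGF-beta. PDGFRB (1.05) and COL1A1 (0.98) rose with TGF-beta present in both arms, and these calls and that of KRT7 held on leaving out any 1 line. In siSFPQ cells TGF-beta raised COL1A1 by 2.61 (SE 0.46, limma adjusted p = 0.0340) and PDGFRB by 1.25 (SE 0.22, adjusted p = 0.0340). The former call ended without any 1 of Huh1, HepG2, HLE or SK-HEP1, and the latter on leaving out any 1 line except SK-HEP1. In siCTL cells both genes were also higher with TGF-beta in 6 of 6 lines. There COL1A1 was at 2.05 and PDGFRB at 0.52, short of the threshold (limma adjusted p = 0.0849 and 0.108). Neither interaction passed (COL1A1 0.56 and PDGFRB 0.73, limma adjusted p = 0.182 and 0.0859). Of 2 immune markers, CD68 rose by 0.36 (adjusted p = 0.0383) without TGF-beta, a call that held only on leaving out the libraries labelled Hep3b. No endothelial marker was high enough to be tested.

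Over the 24 libraries the levels of the 8 genes ran together, as a description of lines more than of treatments, since 4 libraries share each line. Pearson's r of log2(FPKM + 1) between members was 0.62 (ONECUT1 and NR1H4) to 1.00 (HNF4A with FOXA2 and with PROX1). The genes with the pattern most like HNF4A among 13495 others were PROX1 (r = 0.995), FOXA2 (0.995) and AMBP (0.994), which encodes a plasma protease inhibitor. FOXA1 was most like RPS6KA3 (0.988), TMEM37 (0.988) and CEBPA (0.986). CEBPA was most like CAMSAP3 (0.987), RPS6KA3 (0.986) and FOXA1 (0.986). FOXA3 was close to ITIH2 (0.990), which encodes an inter-alpha-trypsin inhibitor chain, and to the transferrin gene TF (0.988). ONECUT1 was most like ACY3 (0.965), and NR1H4 most like SLC23A1 (0.986).

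With each line's mean subtracted, the pairs no longer ran together as a block. The highest values were between FOXA1 and NR1H4 (r = 0.72), ONECUT1 and NR1H4 (0.69) and FOXA1 and ONECUT1 (0.63), and the lowest between HNF4A and FOXA3 (-0.45). The differences by siRNA and TGF-beta given above stay in these values. NR1H4 was at most 0.0844 FPKM in HLE, SK-HEP1 and the libraries labelled Hep3b, so its values rest mostly on Huh1, Huh7 and HepG2. HNF4A and FOXA1, at 0.95 over all libraries, were at 0.00 within lines. The genes most like ONECUT1 within lines were GJB1 (0.915), the gap junction protein connexin 32, CHDH (0.904) and CHST9 (0.902). For FOXA1 they were HAAO (0.907), SLC44A3 (0.873) and ZNF253 (0.850), and for NR1H4 HABP2 (0.906), SLC23A1 (0.900) and LGALS2 (0.899). HNF4A was most like NUMBL (0.813), FOXA3 most like AHSG (0.864) and CEBPA most like FAM123B (0.837).

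**Figure D4:**
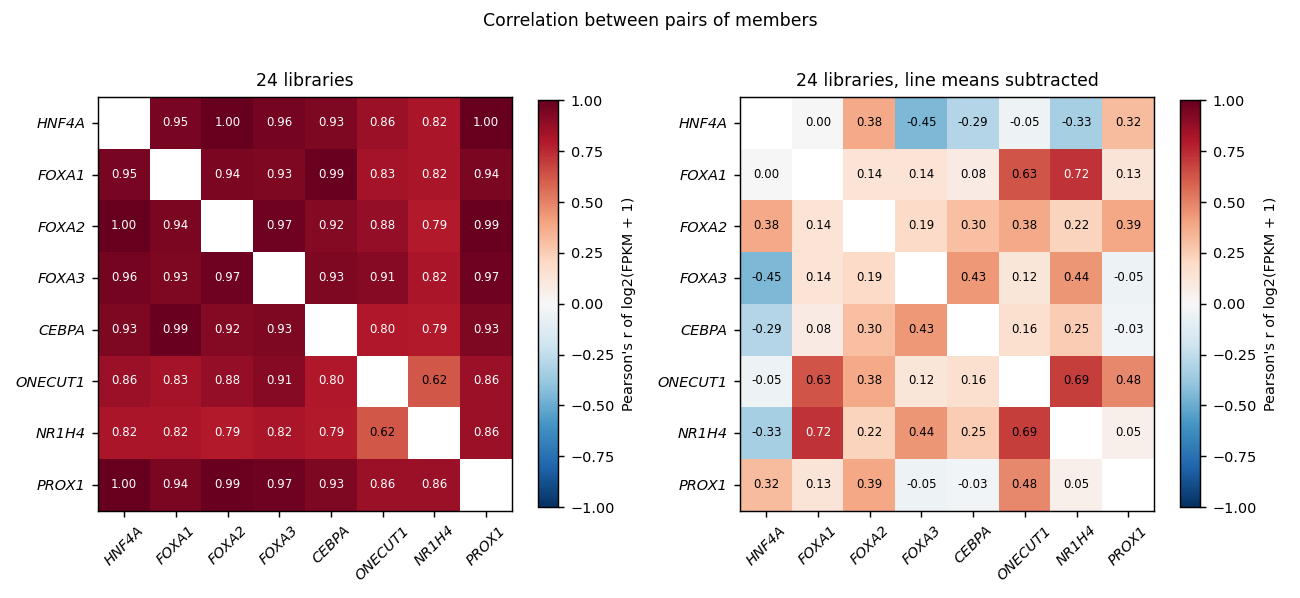
Pearson's r of log2(FPKM + 1) between each pair of the 8 genes over 24 libraries, as levels (left) and with each line's mean subtracted (right), with both axes listing the genes and colour giving r from -1 to 1. Values are 0.62 to 1.00 on the left and -0.45 to 0.72 on the right, where FOXA1, ONECUT1 and NR1H4 form the 3 highest pairs.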

How the data were processed

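Polyadenylated RNA was sequenced in 24 libraries. The tools were Cufflinks 2.2.1 and TopHat2 2.1.1 on build hg19, per the submitters' processing notes. Annotation, settings and strand use were not stated there. The table's name speaks of raw counts, but the values the authors deposited are FPKM: they are not whole, and the value of 1 read fell with transcript length (log-log slope -0.87 in 446 genes with 1 transcript). Depth is only estimated, and intervals from counts cannot be given. From the 23284 rows, 1624 of short RNAs were removed, since MIR4461 alone took 33.6% to 51.6% of each library, and 21660 were kept.

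The log2(FPKM + 1) values were fitted with limma (version 3.58.1, R 4.3.3), with the cell line as a block, trended and robust eBayes shrinkage and 5 residual degrees of freedom. Within each comparison, all genes tested shared 1 Benjamini-Hochberg adjustment. Testing required 1 FPKM in 6 or more libraries of a comparison, and a call an adjusted p under 0.05. Differences on this scale understate changes of low genes. The line pairs the libraries, as the labels name it: deviations from group means correlated at 0.874 to 0.978 between libraries of 1 line, and at -0.514 to 0.410 between other lines and groups. The p-values measure the spread between lines. The fit was tested on simulated data. Alternatives were pseudocount 0.1, no filter, median ratio scaling, removal of each library's GC trend, no line block, plain shrinkage and leaving out lines; leaving out Hep3b, HLE and SK-HEP1 together was added after the data were seen.

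The members and lists were chosen with earlier results of these data known. Named were the 8 members and SFPQ, from each list the called genes with the smallest p (at most 4, or the 2 smallest p where none was called), and the 3 genes most correlated with a member. The lists were wider liver transcription factors, FXR targets, and hepatocyte, bile duct, endothelial, stellate and immune markers. Some results under the rule are not reported here. Overlapping genes came from an annotation of another build, matched by symbol.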

Additional observations from a re-analysis of the deposited data

Results flagged for a closer look

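In 8 of the 32 sets made by 1 gene in 1 group, a single line stood apart from the other 5 by Dixon's criterion at its 95% level, applied to FPKM without a log. For ONECUT1 that line was Huh7 in each of the 4 groups, at 22.0 FPKM in siCTL, 34.5 in siCTL with TGF-beta, 10.6 in siSFPQ and 11.7 in siSFPQ with TGF-beta. For NR1H4 it was HepG2, at 38.0, 32.4, 16.5 and 20.4 FPKM in the same order. The 4 groups share their lines, so these are repeats of 1 pattern per gene. The chance rate of that criterion, about 1 in 20, holds for normally distributed values. For both genes HLE, SK-HEP1 and the libraries labelled Hep3b were under 1 FPKM in every group. The lines thus formed a low and a higher set, so the 8 flagged sets cannot be compared with that rate.

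Some lines had differences of opposite sign in both settings of a contrast. Any sign counted, however small. With TGF-beta, HNF4A in HepG2 was at 0.00 in siCTL cells and -0.21 in siSFPQ cells, and FOXA2 in Huh7 at 0.02 and 0.33. After knockdown without TGF-beta, FOXA2 in Huh1 was at 0.01. These differences between lines were not tested, and each value that follows is the mean log2 difference of 2 pairs of libraries. With TGF-beta, HNF4A was at 0.67 in Huh1 and -0.10 in HepG2, FOXA1 at 0.21 in the libraries labelled Hep3b and -0.39 in Huh1, and FOXA2 at 0.17 in Huh7 and -0.27 in HepG2. FOXA3 was at 0.10 in Huh7 and -0.73 in Huh1, ONECUT1 at 0.37 and -0.82, and PROX1 at 0.46 and -0.05 in these lines. After SFPQ knockdown, CEBPA was at 0.85 in the libraries labelled Hep3b and -0.36 in HepG2. FOXA2 was at 0.04 in Huh1 and -0.24 in HepG2, and PROX1 at 0.04 in Huh1 and -0.27 in Huh7.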

How the results depend on the processing

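The knockdown counts, 1 member each, depended on the processing, and the cause was not tested. Without TGF-beta 2 members were called with pseudocount 0.1, and 0 with no filter, without HLE and SK-HEP1, and without these and Hep3b; leaving out 1 line gave 0 to 1. With TGF-beta it was 2 with pseudocount 0.1, 0 with no filter, median ratio scaling or GC trend removed, and 0 to 1 on leaving out 1 line. With no replicate block both counts were 0, and all genes gave 0 calls without TGF-beta; spread between lines then enters the error. The 3 counts of 0 (TGF-beta in siCTL and siSFPQ cells, interaction) were 0 in every alternative run. ONECUT1 without TGF-beta was at -0.79 (limma adjusted p = 0.0630, 2 residual degrees of freedom) in Huh1, Huh7 and HepG2 alone, and FOXA1 with TGF-beta at -0.54 (adjusted p = 0.0289). Of mean levels by line, FOXA2 (19.6 FPKM) and PROX1 (13.5) in Huh1 moved by over 1 SD with median ratio scaling.

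Signs turned for members near 0. With pseudocount 0.1, knockdown without TGF-beta gave HNF4A 0.12, FOXA3 -0.01 and PROX1 0.07, knockdown with TGF-beta HNF4A 0.18, TGF-beta in siSFPQ cells FOXA3 0.05, and the interaction HNF4A 0.06 and FOXA3 0.07. With median ratio scaling, HNF4A was 0.04 in both knockdown comparisons, and the interaction was 0.00 for HNF4A and 0.01 for ONECUT1. With the GC trend removed, HNF4A was 0.08 in both and PROX1 0.08 without TGF-beta, and the ONECUT1 interaction 0.01. Without HLE and SK-HEP1, PROX1 was -0.05 (knockdown with TGF-beta) and FOXA1 0.00 (TGF-beta in siCTL). Without these and Hep3b, knockdown with TGF-beta gave CEBPA -0.03 and PROX1 -0.04, and TGF-beta in siSFPQ cells FOXA1 -0.04.

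Leaving out 1 line turned signs too. Ranges for knockdown without TGF-beta were -0.04 to 0.04 (HNF4A) and -0.09 to 0.01 (PROX1), and with it -0.14 to 0.05 (HNF4A), -0.04 to 0.23 (CEBPA), -0.02 to 0.04 (PROX1) and -0.06 to 0.12 (FOXA3). With TGF-beta in siCTL cells they were -0.08 to 0.04 (FOXA1) and -0.26 to 0.03 (ONECUT1), and in siSFPQ cells -0.07 to 0.12 (FOXA1), -0.22 to 0.05 (FOXA3) and -0.19 to 0.02 (ONECUT1). Interaction ranges were -0.11 to 0.02 (HNF4A), -0.03 to 0.14 (FOXA1), -0.10 to 0.07 (FOXA3), -0.07 to 0.03 (CEBPA), -0.07 to 0.10 (ONECUT1) and -0.22 to 0.05 (NR1H4). Values under 1 FPKM rest on few reads, most of all at relative depths of 0.352 and 0.398.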
